A study of Arabidopsis thaliana and Zea mays subsp. mays with 14 samples.

Results

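Aquaporins are membrane channels that pass water and, in some subfamilies, small uncharged solutes such as boric acid, glycerol or ammonia. In Arabidopsis thaliana they form the plasma membrane (PIP), tonoplast (TIP), NOD26-like (NIP) and small basic (SIP) subfamilies. The accounts below cover 35 aquaporin loci of 27444 protein-coding genes, listed by locus and subfamily: 13 PIP, 10 TIP, 9 NIP and 3 SIP genes. The value followed was the number of bases that called open-chromatin regions covered at the ends of each gene, from 1000 bp outside to 200 bp inside both ends. Every one of the 35 loci was long enough for a window of 2400 bases, so the windows are of equal size and can be set side by side. Names are those of the RefSeq gene table, with the standard aquaporin name given once.

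The assay was ATAC-seq on nuclei sorted by fluorescence: the enzyme Tn5 cuts accessible DNA and tags it for sequencing. The plants were of the Col-0 background, 7 days old, and grown on plates with LS medium, sugar and 16 h of light. The 10 libraries analysed here formed 5 groups of 2. They were 50000 sorted nuclei of wild-type whole seedlings, 500 sorted nuclei of such seedlings, 50000 nuclei of wild-type roots, 50000 seedling nuclei labelled as crude, and 50000 seedling nuclei of a 35S:H2AX-GFP transgenic line, in which a constitutive viral promoter drives a fluorescent histone variant. The protocol text names sorting for the crude samples too, which leaves their purification unclear. Whole seedlings include roots, so a seedling library also holds root nuclei. Region lists with between 22138 and 29309 regions came with the libraries, covering between 13.78 and 24.61 Mb. Root replicate 2, with 15.76 Mb, covered less of the genome than root replicate 1, with 21.56 Mb. The lists carry no read counts, so the depth is unknown. Nothing in the labels ties the 2 libraries of a group to separate plants. The p-values therefore measure only the spread among libraries, and that spread may be technical.

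A shoot and a root marker list were set against the tissue labels. Both were chosen with earlier results of these data known, so they are no independent check. Over 10 shoot markers, such as RBCS2B for the small subunit of Rubisco, covered bases summed to between 2494 and 3004 in the root libraries and between 13108 and 19329 in the 8 seedling libraries, and 5 of the 10 were at 0 in both root libraries. Over 10 root markers, such as IRT1 for iron uptake and AKT1 for potassium uptake, the sums were between 6575 and 8714 in root and between 1398 and 5046 in seedlings. Among shoot markers, RBCS1A had 2235 bases in root replicate 1, inside its seedling range of 1910 to 2400, and 1270 in root replicate 2. Among root markers, CASP1, MYB36 and WOX5 did not follow these sums, with root values inside their seedling ranges. PLT1, a regulator of the root stem cell niche, was at 0 in all 10 libraries.

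PIP proteins carry water across the plasma membrane and are known for setting root and leaf hydraulic conductance. TIP proteins do the same for the vacuole. NIP proteins pass metalloids such as boric acid and arsenite more than water, and SIP proteins reside in the endoplasmic reticulum. The PIP genes divide into PIP1 and PIP2 groups. PIP2 proteins are efficient water channels on their own, while many PIP1 proteins are known to need a PIP2 partner to reach the plasma membrane.

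In seedlings, PIP1 genes had the highest median of covered bases and NIP genes the lowest. The median over genes of the mean over the 8 seedling libraries was 1949.9 bases for 5 PIP1 genes, 1469.0 for 8 PIP2 genes, 1089.0 for 10 TIP genes, 415.0 for 9 NIP genes and 570.8 for 3 SIP genes. These medians describe the genes and were not tested. Of the 35 loci, 21 (all 5 PIP1, 5 of 8 PIP2, 6 of 10 TIP, 3 of 9 NIP and 2 of 3 SIP genes) were covered in all 10 libraries, as were 59.4% of all protein-coding genes. Another 3 were covered in none, as were 10.3% of all protein-coding genes. The mean over the 35 loci was between 1.352 and 1.724 times the mean over all protein-coding genes, in root replicate 1 and 500 nuclei replicate 2 respectively.

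**Figure D1:**
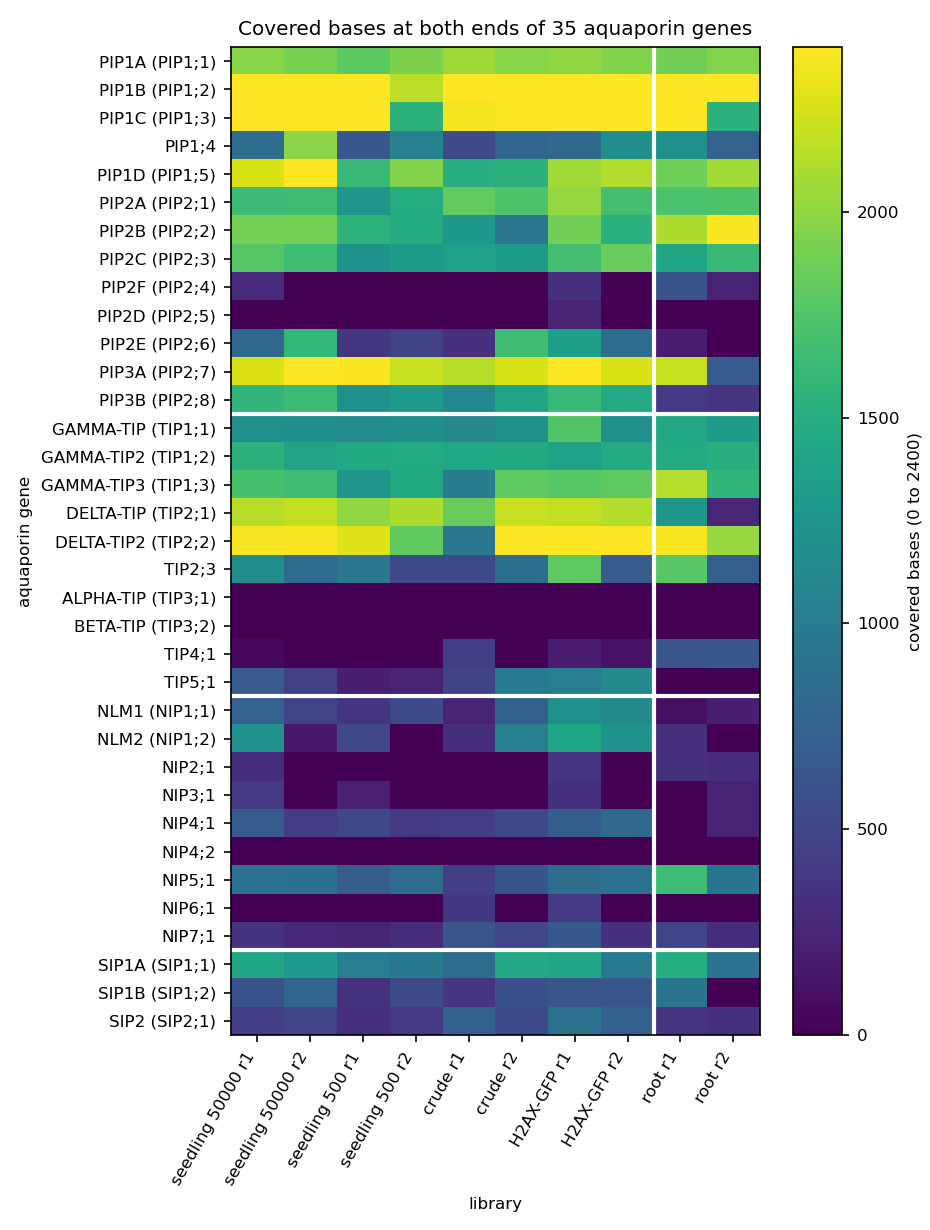
Covered bases (colour, 0 to 2400) at both ends of the 35 aquaporin genes (rows, by subfamily) in each of the 10 libraries (columns, root libraries at the right, r1 and r2 for the replicates). PIP1B is bright in every column, while ALPHA-TIP, BETA-TIP and NIP4;2 are at 0 throughout and TIP5;1 is at 0 in both root columns.

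Among PIP1 genes, PIP1B (PIP1;2, AT2G45960), which contributes to root water uptake, had all 2400 bases covered in 9 libraries and 2160 in 500 nuclei replicate 2. Its seedling mean of 2370.0 bases was the highest of the 35, and at 2400 bases a window cannot show any further gain. A joined region of 6424 bp, chr2:18907404-18913827, spanned the gene and its flanks. PIP1C (PIP1;3, AT1G01620) had between 1546 and 2400 bases in seedlings, and 2400 and 1536 in the root libraries. PIP1A (PIP1;1, AT3G61430) varied little, between 1797 and 2057 over all 10 libraries, with its lower-coordinate end fully covered in each. PIP1D (PIP1;5, AT4G23400) had between 1518 and 2400 bases in seedlings and 1866 and 2066 in root. Lowest of the 5 was PIP1;4 (AT4G00430), with a seedling mean of 985.0 bases and a highest value of 1980 in sorted seedling replicate 2.

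PIP2 genes spread over nearly the whole scale. PIP3A (PIP2;7, AT4G35100) reached a seedling mean of 2290.1 bases, and PIP2A (PIP2;1, AT3G53420), a channel known for roles in lateral root emergence and in guard cells, 1665.9. PIP2F (PIP2;4, AT5G60660), a root water channel, and PIP2D (PIP2;5, AT3G54820) were at the other end with 77.6 and 30.2. The window of PIP2D was covered by 242 bases in H2AX-GFP replicate 1 and at 0 elsewhere, but the gene itself was not closed. Between 0.0% and 51.7% of its span was covered in seedling libraries and 0.0% in both root libraries, so its regions lay inside the gene, away from the ends.

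Tonoplast genes ranged from a seedling mean of 2122.4 bases at DELTA-TIP2 to none at ALPHA-TIP and BETA-TIP. GAMMA-TIP2 (TIP1;2, AT3G26520), a vacuolar water channel, varied little, between 1383 and 1544 bases in the 8 seedling libraries, with 1465 and 1518 in root. GAMMA-TIP (TIP1;1, AT2G36830), one of the most abundant vacuolar membrane proteins, had between 1129 and 1748 bases in seedlings and 1431 and 1321 in root. DELTA-TIP2 (TIP2;2, AT4G17340) had 2377 and 2030 bases in root, within its seedling range of 949 to 2400. ALPHA-TIP (TIP3;1, AT1G73190) and BETA-TIP (TIP3;2, AT1G17810), the channels of protein storage vacuoles in seeds, had no covered base in any library, nor any within the gene span.

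Coverage at NIP genes was lower. NIP5;1 (AT4G10380), the boric acid channel of root uptake, had the highest seedling mean of this subfamily, 768.2 bases. NLM2 (NIP1;2, AT4G18910) had 736.2 and NLM1 (NIP1;1, AT4G19030), which passes arsenite, 683.2. NIP7;1 (AT3G06100), a boric acid channel of anthers, was covered in all libraries, between 245 and 663 bases in seedlings and by 481 and 312 in root. NIP2;1 (AT2G34390), a lactic acid channel induced by low oxygen in roots, had 322 and 302 bases in root but was covered in 2 of 8 seedling libraries, by 316 and 358. NIP3;1 (AT1G31885) was covered in 4 libraries and NIP6;1 (AT1G80760), which passes boron to young leaves, in 2. NIP4;1 (AT5G37810) and NIP4;2 (AT5G37820) are neighbouring genes known from pollen. The first was covered in 9 libraries and the second in none, although their windows share 11 bases. The region at NIP4;1, chr5:15044304-15045136, lay at the end turned away from NIP4;2.

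SIP genes were covered in at least 9 libraries each. SIP1A (SIP1;1, AT3G04090) had between 837 and 1453 bases in seedlings and 1484 and 914 in root. SIP1B (SIP1;2, AT5G18290) had between 349 and 787 in seedlings, 928 in root replicate 1 and 0 in root replicate 2. SIP2 (SIP2;1, AT3G56950) had between 322 and 895 in seedlings and 357 and 321 in root.

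Root libraries were then compared with the 4 seedling groups, to ask at which aquaporin genes open chromatin differed between root and whole seedling. PIP3B (-1028.6 covered bases) and DELTA-TIP (-1331.2 covered bases) were called lower in root, and no aquaporin gene was called higher. Of the 35 genes, 31 had a covered base in at least 2 libraries and were tested. The 2 called genes compare with 2.01% of the 23893 tested genes called in either direction, of which 0.603% were higher and 1.41% lower in root (limma, Benjamini-Hochberg adjusted p under 0.05 over all tested genes). Among 31 genes, 1 called gene is already a larger share than that background. The median difference over the 31 was -6.0 bases, against -26.3 over all tested genes, and 14 differences were positive and 17 negative. At an unadjusted p under 0.05, 12 of the 31 passed, against 14.0% of all tested genes. Scaling moved this picture: 70.1% of all calls were lower in root as counted, 51.7% after quantile normalization and 51.5% after division by covered length. Aquaporin calls then became 2 higher (PIP2F and NIP2;1) and 3 lower with quantile normalization, and 0 higher and 3 lower after division by covered length. In bulk nuclei, a smaller share of cells with an open gene cannot be told apart from less open chromatin in each cell. A whole seedling value also includes its root.

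**Figure D2:**
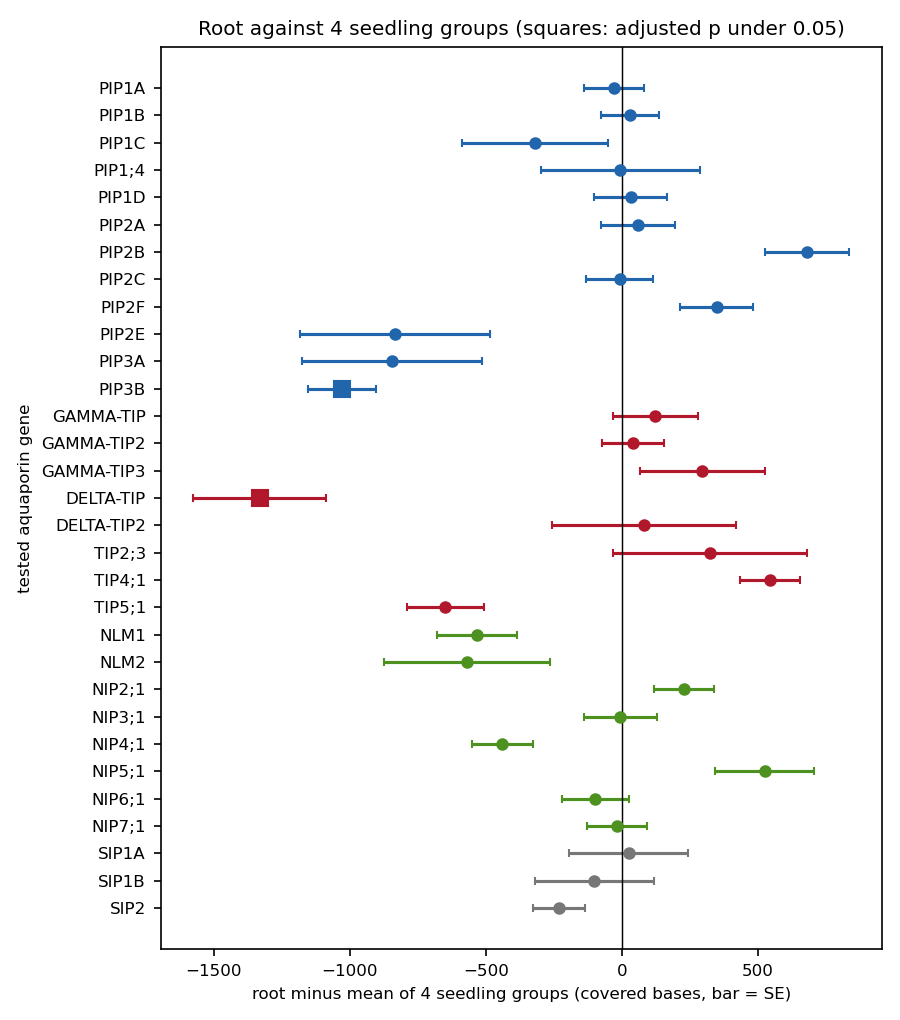
Difference in covered bases (root minus the mean of the 4 seedling groups, with its standard error from limma) for the 31 tested aquaporin genes, coloured by subfamily from PIP at the top to SIP at the bottom. Squares mark PIP3B at -1028.6 and DELTA-TIP at -1331.2 bases, the called genes. The other 29 points range from PIP3A at -845.1 to PIP2B at 680.2.

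PIP3B (PIP2;8, AT2G16850), a PIP2-type water channel, had 398 and 374 covered bases in the root libraries. Sorted seedlings had 1578 and 1643, the 500-nuclei libraries 1208 and 1286, crude nuclei 1120 and 1397, and the H2AX-GFP line 1619 and 1466. The root values lay close together and far below the nearest seedling value, crude replicate 1, so the groups did not overlap. The difference was -1028.6 ± 123.5 bases (SE, limma, adjusted p = 0.0111). Against the sorted seedlings alone it was -1224.5 ± 156.2 bases (SE, limma, adjusted p = 0.0269). This was the 1 aquaporin gene called in that comparison, in which 0.682% of all tested genes were called, 0.105% higher and 0.578% lower. Of the calls over all genes there, 84.7% were lower as counted, 60.6% after quantile normalization and 47.8% after division by covered length, under which PIP3B was not called.

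Both ends of PIP3B contributed. At the lower-coordinate end, the region chr2:7300675-7301718 was called in all 8 seedling libraries and in root replicate 1, where it was 61 bp wide, so that 30.5 bases of this end were covered on average in root and 727.5 in seedlings. At the other end, the region chr2:7303027-7304116 was called in all 10 libraries, at most 374 bp wide in root and 968 bp in seedlings. The neighbour AT2G16860 shares 702 bases of the window and was not called itself (-327.4 bases, limma, adjusted p = 0.267). The call was lost when either root library was left out (limma, adjusted p = 0.106 without replicate 1 and 0.0735 without replicate 2), while the difference was -1040.6 and -1016.6 bases in these fits. Against sorted seedlings alone it was kept in 12 of 24 alternatives, and was lost without any single sorted seedling, 500-nuclei or root library.

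DELTA-TIP (TIP2;1, AT3G16240) encodes a vacuolar channel for water and ammonia known from shoot vascular tissue. It had 1269 and 260 covered bases in root. The seedling libraries ranged narrowly, with 2142 and 2178 in sorted seedlings, 2009 and 2102 in 500 nuclei, 1842 and 2196 in crude nuclei, and 2175 and 2122 in H2AX-GFP seedlings. Both root values were below every seedling value, but they differed from each other by more than the whole seedling range. The difference was -1331.2 ± 244.1 bases (SE, limma, adjusted p = 0.044), and against sorted seedlings alone -1395.5 ± 308.8 bases, which was not called (SE, limma, adjusted p = 0.116). These SEs rest on an estimate of spread shared by all 5 groups. The SD was 713.5 bases in root and at most 250.3 in a seedling group.

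Root replicate 2, which covered less of the genome, held the lower value. Without it the difference at DELTA-TIP was -826.7 bases, and without root replicate 1 it was -1835.8 bases. The call was lost in each of the 10 fits that left out a library (limma, adjusted p between 0.0632 and 0.129). Inside the gene, 6.2% of the span was covered in root on average and 82.8% in seedlings. The joined region chr3:5503226-5507846 ran 4621 bp over the gene, and its widest piece was 937 bp in root and 4600 bp in seedlings. PnsB3, the neighbour, shares 280 bases of the window and had -1642.1 bases in root, not called (limma, adjusted p = 0.118).

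**Figure D3:**
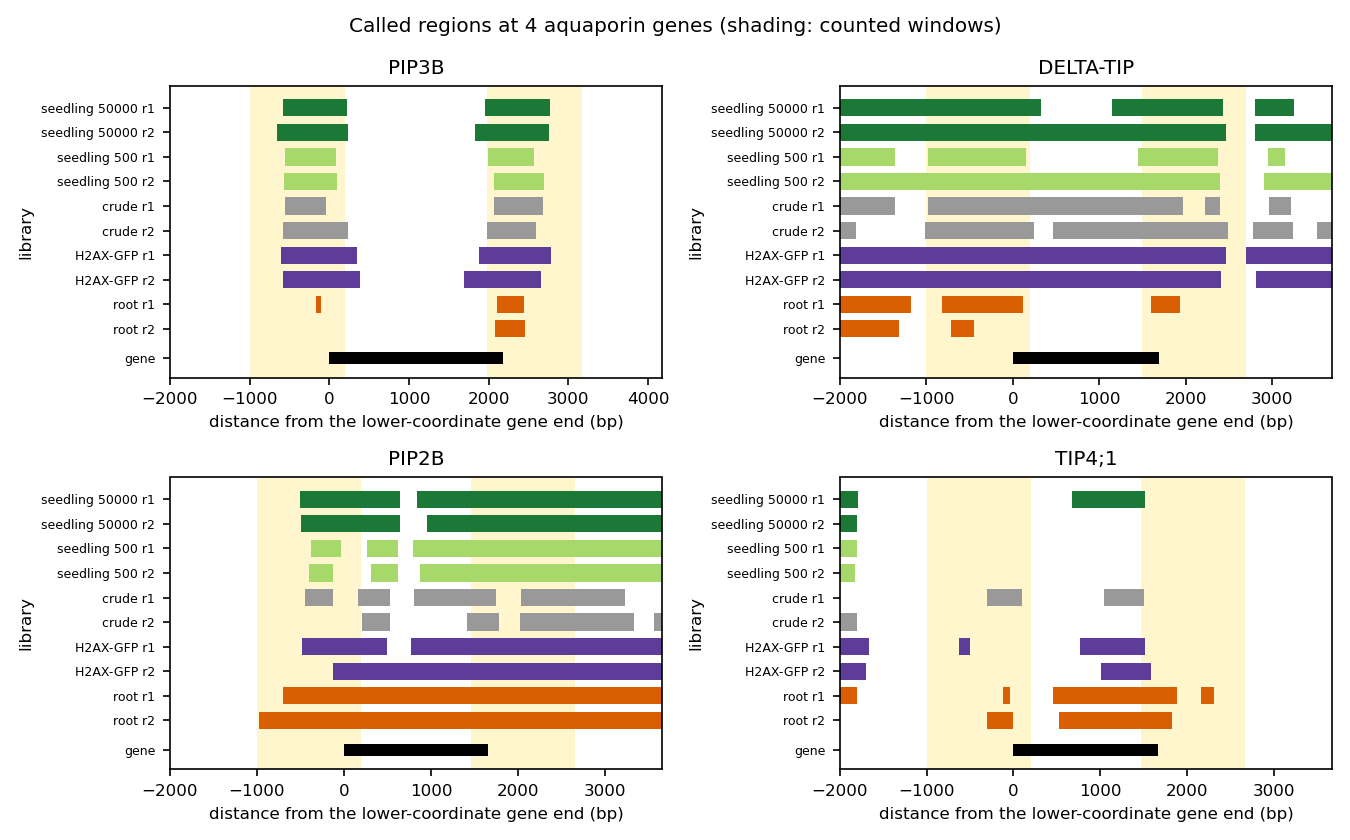
Called regions (coloured bars) in each library around PIP3B, DELTA-TIP, PIP2B and TIP4;1, by distance in bp from the lower-coordinate end of the gene (black bar), with the counted windows shaded. Root bars are short or missing at PIP3B and DELTA-TIP, span the whole plotted gene at PIP2B, and cover much of TIP4;1, where 4 of the 8 seedling libraries show a bar over the gene and 4 show none.

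The naming rule gave 4 further genes with large negative differences, none of them called. TIP5;1 (AT3G47440), known from pollen, had 0 bases in both root libraries. It had 670 and 450 in sorted seedlings, 200 and 231 in 500 nuclei, 465 and 994 in crude nuclei, and 1040 and 1140 in H2AX-GFP seedlings. All 8 seedling libraries were thus above root, but they spread widely among themselves. The difference was -648.8 ± 141.9 bases (SE, limma, adjusted p = 0.075), though it was called after quantile normalization (limma, adjusted p = 0.026) and after division by covered length (limma, adjusted p = 0.0287). The region behind it, chr3:17474110-17482253, was 8144 bp long when joined over libraries. By the authors' score for each region, it stood between the 98.1 and 99.8 percentile of its own library in 7 of the 8 seedling libraries and at 45.1 in crude replicate 1.

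PIP3A, a water channel known to be reduced under salt stress, had 2200 bases in root replicate 1 and 690 in replicate 2. Seedling libraries had 2269 and 2400 in sorted nuclei, 2382 and 2198 in 500 nuclei, 2140 and 2268 in crude nuclei, and 2400 and 2264 in H2AX-GFP nuclei. Root replicate 1 lay inside the seedling range and replicate 2 far below it, and the difference of -845.1 ± 331.6 bases was not called (SE, limma, adjusted p = 0.308). Without root replicate 2 it was -90.1 bases.

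PIP2E (PIP2;6, AT2G39010), a water channel of leaf veins, had 193 and 0 bases in root. Seedling values were 823 and 1588 in sorted nuclei, 378 and 468 in 500 nuclei, 322 and 1662 in crude nuclei, and 1353 and 849 in H2AX-GFP nuclei. Root was below all of them, but the crude replicates alone spanned the whole seedling range, and the difference of -833.9 ± 348.8 was not called (SE, limma, adjusted p = 0.345). Over the gene span, 69.4% was covered in seedlings on average and 5.8% in root. When the window took in the gene span as well, the gene was called (limma, adjusted p = 0.0232).

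NLM2, known for moving aluminium malate, had 332 and 0 bases in root, against 1212 and 163 in sorted nuclei, 507 and 0 in 500 nuclei, 311 and 1039 in crude nuclei, and 1423 and 1235 in H2AX-GFP nuclei. These ranges overlap (-570.2 bases, limma, adjusted p = 0.488). Its paralogue NLM1 had 99 and 199 bases in root, and 240, 635.5 and 1209 as the lowest, median and highest seedling value. The groups did not overlap there, and the difference of -534.2 ± 146.9 bases was not called (SE, limma, adjusted p = 0.14). The neighbour CMT2 shares 655 bases of the NLM1 window and had -449.1 bases in root, not called (limma, adjusted p = 0.174).

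NIP4;1 had 0 and 243 bases in root. In seedlings it had 677 and 414 in sorted nuclei, 516 and 405 in 500 nuclei, 417 and 519 in crude nuclei, and 707 and 833 in H2AX-GFP nuclei. Both root values were lower than all 8 seedling values (-439.5 ± 111.8 bases, SE, limma, adjusted p = 0.113), while NIP4;2 had nothing to compare. In all, 6 tested aquaporin genes had both root libraries below all 8 seedling libraries (PIP2E, PIP3B, DELTA-TIP, TIP5;1, NLM1 and NIP4;1), a layout found for 5.72% of all tested genes.

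**Figure D4:**
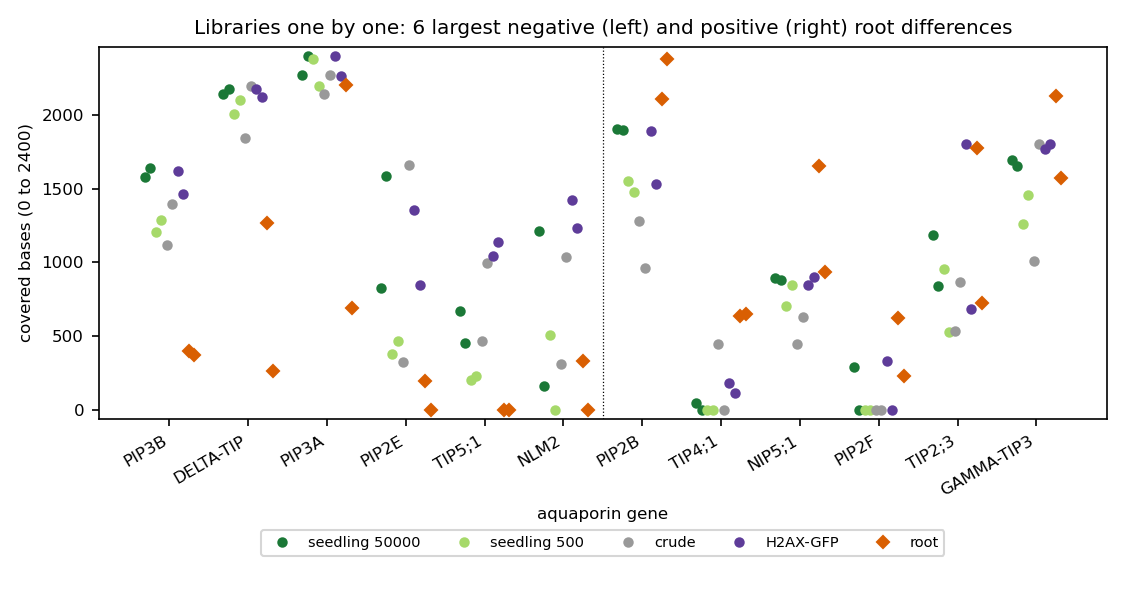
Covered bases (0 to 2400) in each of the 10 libraries for the 6 aquaporin genes with the largest negative (left) and the 6 with the largest positive (right) difference of root from the 4 seedling groups. Orange diamonds (root) lie apart below the circles (seedling groups by colour) at PIP3B, DELTA-TIP, PIP2E and TIP5;1 and above them at PIP2B, TIP4;1 and NIP5;1. At PIP3A and NLM2 they overlap.

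On the positive side, PIP2B (PIP2;2, AT2G37170), a channel for water uptake in root cortex cells, had 2105 and 2376 covered bases in root. Sorted seedlings had 1902 and 1895, 500 nuclei 1550 and 1475, crude nuclei 1279 and 965, and H2AX-GFP seedlings 1888 and 1528. Root was above all seedling libraries, nearest to the sorted ones. The difference of 680.2 ± 155.3 bases was not called (SE, limma, adjusted p = 0.0818), and against sorted seedlings alone it was 342.0 ± 196.4 (SE, limma, adjusted p = 0.68). The gap was at the lower-coordinate end, with 1040.5 bases on average in root and 425.6 in seedlings, while the other end had 1200.0 and 1134.6 of 1200 possible. The neighbour AT2G37160 shares 833 bases of the PIP2B window and had 514.0 more bases in root, not called (limma, adjusted p = 0.172).

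PIP2C (PIP2;3, AT2G37180), known from a desiccation-induced transcript, is the neighbouring aquaporin gene and near-identical paralogue of PIP2B. Root libraries had 1415 and 1615 bases there, against 1768 and 1655 in sorted nuclei, 1238 and 1320 in 500 nuclei, 1373 and 1308 in crude nuclei, and 1682 and 1843 in H2AX-GFP nuclei. Root lay within the seedling range (-8.4 ± 124.3 bases, SE, limma, adjusted p = 0.99). The joined region chr2:15612392-15618407 of 6016 bp spanned PIP2B and ended inside PIP2C. Its widest piece was 6002 bp in root and 5109 bp in seedlings. The placement of reads that fit both copies is unknown, so the values of PIP2B and PIP2C are uncertain to that extent.

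TIP4;1 (AT2G25810), a vacuolar channel known from roots, had 634 and 653 bases in root. Sorted seedlings had 49 and 0, both 500-nuclei libraries 0, crude nuclei 443 and 0, and H2AX-GFP seedlings 181 and 113. Root stood above all of them, and crude replicate 1 was the nearest. The difference of 545.2 ± 110.0 bases was not called (SE, limma, adjusted p = 0.0584), nor that of 619.0 ± 139.2 against sorted seedlings (SE, limma, adjusted p = 0.12). Over 23 alternatives the adjusted p ranged from 0.00617 to 0.743 and passed in 5, among them the fits without either crude library. Within the gene, 70.7% of the span was covered in root on average and 20.5% in seedlings. The neighbour ESE2, an ethylene-response factor, shares 1017 bases of the window and had 452.5 more bases in root (limma, adjusted p = 0.0919).

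NIP5;1 had 1652 and 933 bases in root. In seedlings it had 895 and 877 in sorted nuclei, 706 and 848 in 500 nuclei, 445 and 628 in crude nuclei, and 845 and 902 in H2AX-GFP nuclei. Root was above all, though replicate 2 only just, and the difference of 524.2 ± 181.5 bases was not called (SE, limma, adjusted p = 0.235). A region of 5392 bp, chr4:6430648-6436039, was unbroken in root replicate 1, and 92.5% of the gene span was covered in root on average against 60.4% in seedlings. PIP2B, TIP4;1 and NIP5;1 were the 3 aquaporin genes with both root libraries above all 8 seedling libraries, a layout found for 3.87% of all tested genes.

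At the remaining positive differences the groups overlapped. PIP2F had 626 and 226 bases in root, 293 and 0 in sorted seedlings, 328 and 0 in H2AX-GFP seedlings and 0 in all 4 other seedling libraries (348.4 bases, limma, adjusted p = 0.293). TIP2;3 (AT5G47450), a vacuolar ammonia channel, had 1774 and 724 in root. Its seedling values were 1185 and 837 in sorted nuclei, 956 and 529 in 500 nuclei, 534 and 870 in crude nuclei, and 1804 and 686 in H2AX-GFP nuclei (323.9 bases, limma, adjusted p = 0.791). GAMMA-TIP3 (TIP1;3, AT4G01470), known from pollen, had 2130 and 1573 in root. It had 1697 and 1655 in sorted nuclei, 1258 and 1454 in 500 nuclei, 1010 and 1805 in crude nuclei, and 1771 and 1803 in H2AX-GFP nuclei (294.9 bases, limma, adjusted p = 0.676).

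By subfamily, the differences of root from the 4 seedling groups lay between -320.4 and 31.7 bases at the 5 PIP1 genes, with none called (limma, lowest adjusted p = 0.703). The 7 tested PIP2 genes ranged from -1028.6 to 680.2 with 1 lower, the 8 tested TIP genes from -1331.2 to 545.2 with 1 lower, and the 8 tested NIP genes from -570.2 to 524.2 with none called. Among SIP genes, the range was -231.8 to 24.4 and none was called. SIP2 shares 253 window bases with CRD1, a chlorophyll synthesis enzyme that in root fell by 932.2 bases (limma, adjusted p = 0.0475), and was itself at -231.8 bases (limma, adjusted p = 0.338). Members not called in either direction are not shown to be alike in root and seedling.

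Seedling preparations were compared with the 50000 sorted seedling nuclei, to ask whether nuclei number, purification or the transgenic line moved the same windows. No aquaporin gene was called in any of these comparisons, nor was any of the 23893 genes, that is 0.0% of them (limma). At an unadjusted p under 0.05, 1778 genes (7.44%) passed for 500 nuclei, 2264 (9.48%) for crude nuclei and 759 (3.18%) for H2AX-GFP. Of aquaporin genes, 2 of 31 passed for 500 nuclei and 3 of 31 for each of the other preparations. These comparisons share the sorted seedling libraries with each other and with the comparison of root with sorted seedlings.

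With 500 nuclei, 30 of the 31 tested aquaporin genes had fewer covered bases and 1 no difference, with a median of -173.0 bases against -211.5 over all tested genes. Both 500-nuclei lists also covered less of the genome, 15.77 and 13.87 Mb against 22.39 and 21.02 Mb in sorted seedlings. After division by covered length, 22 of the 31 differences were positive, with a median of 115.1 bases against 6.3 over all tested genes. After quantile normalization 17 were positive, and the medians were 12.4 and 10.7. As counted, PIP2E had the largest, -782.5 bases (limma, adjusted p = 0.666), and PIP1D had -550.5 (limma, adjusted p = 0.664).

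With crude nuclei the median was -141.0 bases, against -138.0 over all tested genes, and 23 of 31 differences were negative. PIP1D had 1518 and 1539 bases in crude nuclei and 2267 and 2400 in sorted ones, and these groups did not overlap (-805.0 ± 168.2, SE, limma, adjusted p = 0.312). PIP2B followed with -776.5 ± 196.4 bases (SE, limma, adjusted p = 0.351). Crude replicate 1 covered 13.78 Mb and replicate 2 covered 19.26 Mb, and at DELTA-TIP2 they had 949 and 2400 bases. After division by covered length, 19 of 31 differences were positive and the median was 109.4 bases, against 33.9 over all tested genes. After quantile normalization the medians were 43.7 and 21.0.

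In the H2AX-GFP line the median was 21.0 bases, against 23.5 over all tested genes, with 17 positive and 12 negative differences. That sign turned with scaling, to -57.4 bases after quantile normalization and -93.0 after division by covered length. As counted, NLM2 had the largest positive one, 641.5 bases (limma, adjusted p = 1.0). NLM1 had 1209 and 1129 bases in the line against 751 and 495 in sorted seedlings (546.0 ± 185.8, SE, limma, adjusted p = 1.0), and TIP5;1 had 1040 and 1140 against 670 and 450 (530.0 ± 179.5, SE, limma, adjusted p = 1.0). At both genes the H2AX-GFP libraries had the highest values of the 10.

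Genes that act with aquaporins were read out in the same fit of root against the 4 seedling groups, in which 2.01% of all tested genes were called. Of 10 regulators (ubiquitin ligases, SNARE proteins, kinases and the TSPO protein that take part in aquaporin trafficking or phosphorylation), none was called, 3 differences were positive and 7 negative, and the median was -73.8 bases. RMA2, a ubiquitin ligase, had the largest, with 1431 and 679 bases in root and between 1252 and 2348 in seedlings (-690.6 bases, limma, adjusted p = 0.274). BAK1, a receptor kinase, had 2060 and 1200 in root and 1200 in each of the 8 seedling libraries (430.0 bases, limma, adjusted p = 0.419), so that root replicate 1 alone differed.

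Boron exporters of the BOR family work with NIP5;1 in boron uptake. Of 7, 5 were tested and none was called, with 3 positive and 2 negative differences. BOR2 had 2400 and 1668 bases in root. Sorted seedlings had 1365 and 1015, 500 nuclei 492 and 446, crude nuclei 71 and 771, and H2AX-GFP seedlings 1214 and 899. Root was above all seedling libraries, a layout found for 3.87% of all tested genes. The difference of 1249.9 ± 249.2 bases was just outside the threshold (SE, limma, adjusted p = 0.0563). BOR4 had 1826 and 1224 in root and between 465 and 1469 in seedlings (589.4 bases, limma, adjusted p = 0.234).

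Proton pumps energise the membranes in which PIP and TIP proteins sit. None of 6 was called, and 2 differences were positive and 4 negative. AHA1, a plasma membrane pump, had 794 and 629 bases in root and between 285 and 2400 in seedlings (-596.0 bases, limma, adjusted p = 0.559). AVP1, the vacuolar pyrophosphatase, had 914 and 667 in root and between 1004 and 1593 in seedlings, without overlap (-446.2 bases, limma, adjusted p = 0.251). AHA2 went the other way, with 1909 and 1761 in root and between 1410 and 1759 in seedlings (234.5 bases, limma, adjusted p = 0.447). Root lay below all seedling libraries at 5.72% of all tested genes and above them at 3.87%.

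Of the shoot markers, 6 were called lower in root in this comparison (RBCS1B, RBCS2B, RBCS3B, LHCB2.2, GLK1 and KCS6) and none higher. Of the 9 root markers tested, 3 were called higher (BHLH38, PHO1 and AKT1) and none lower. The differences at the 6 called shoot markers ranged from -2123.6 bases at RBCS2B to -1372.4 at GLK1. Those at the 4 shoot markers not called ranged from -1070.5 at LHCB1.1 to -533.0 at RBCS1A. Root markers tested but not called ranged from -24.9 bases at CASP1 to 1159.4 at IRT1, with WOX5 at 2.8 and MYB36 at 33.9. Both marker lists were chosen to differ between the tissues, with earlier results of these data known. They were read out beside the labels and are no independent check of them. What part the absence of shoot nuclei has in the aquaporin differences was not tested.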

How the data were processed

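ATAC-seq regions were called in each library by the authors, and deposited as positions with a score per region. Neither the caller nor the meaning of the score is stated in the labels, and scores were only ranked within a library. Positions refer to TAIR10, per the submitters' processing notes. Genes were taken from the RefSeq table of TAIR10.1, whose nuclear chromosomes carry the same sequence, and joined by position. In sorted seedling replicate 1, the library checked, gene ends were covered more often than positions 5000 bp away in 112 of 112 bins of 1 Mb. Bins with few genes were left out, and a small offset would not show. The table gives no strand or exons, so both gene ends were counted, where a window at the start alone was also planned.

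Covered bases, from 0 to 2400 per gene, entered a limma fit to all 10 libraries (version 3.58.1 under R 4.3.3, eBayes with the trend and robust options). For each gene the 5 groups share an estimate of spread, so an SE does not show the spread of root alone. Tested were 23893 of 27444 protein-coding genes, those with a covered base in at least 2 libraries. Calls needed a Benjamini-Hochberg adjusted p under 0.05. The procedure was also run on simulated data, with some genes left uncovered in root or in all seedling libraries. Partial differences were not simulated, so that run does not bear on them. Regions were joined over libraries where they touched or overlapped. Python 3.11.15 with numpy 2.4.6, pandas 2.3.3 and matplotlib 3.10.9 was used.

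The aquaporin genes and the other lists were chosen with earlier results of these data known. The rule for genes given with each library named called members, the 6 largest differences in either direction, PIP2B with PIP2C, NIP4;1 with NIP4;2, NIP5;1, and from the other lists each called gene and the 2 largest differences. Other members, and the PIP1D, NLM1, DELTA-TIP2, AHA2 and RBCS1A values, were picked for description after their values were seen. Of 14 samples in the series, 4 were not analysed here, both genomic DNA samples among them, so no background from bare DNA is given.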

Additional observations from a re-analysis of the deposited data

How the results depend on the processing

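Alternatives were other windows, normalizations, region thresholds, filters and fits, and each library left out in turn. Each gene end on its own was added after the data were seen, in place of windows at the annotated start or end, which were not run because the gene table gives no strand. No aquaporin gene changed the direction of a call under any alternative. PIP3B stayed called in 21 of 23 alternatives against the 4 seedling groups and in 12 of 24 against sorted seedlings, and DELTA-TIP in 8 of 23 against the 4 groups.

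Against the 4 seedling groups, 2 aquaporin genes and 481 genes in all were called. Aquaporin calls were 5 under quantile normalization and when the better-scoring 50% of regions was used. They were 1 with the 2000 bp window, with no filter, with the lower-coordinate end alone and with the replicate block (DELTA-TIP, adjusted p = 0.0633 in limma). The count over all genes was 765 with the better-scoring 50% of regions, 730 with equal region numbers, 1101 with quantile normalization and 831 after division by covered length. Leaving out a library gave 0 to 3 aquaporin calls and 0 to 520 over all genes, the lowest without root replicate 1 in both. Aquaporin calls were also 0 without root replicate 2, and 1 without any single sorted seedling, 500-nuclei or H2AX-GFP library. Over all genes, calls were 295 and 191 without sorted seedling replicates 1 and 2, 169 without either 500-nuclei library and 126 without root replicate 2.

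Against sorted seedlings, 1 aquaporin gene and 163 genes were called. Aquaporin calls were 4 with the better-scoring 50% of regions. They were 0 with the 2000 bp window, with the gene span plus 1000 bp, after division by covered length, with the higher-coordinate end alone, with the replicate block and with only the groups compared. The count over all genes was 311 with the 500 bp window, 47 with the 2000 bp window, 24 with the gene span, 475 with the better-scoring 50%, 280 with equal region numbers, 269 with quantile normalization and 46 after division by covered length. It was 277 with no filter, 254 without trend and robust, 252 and 317 with the lower- and higher-coordinate end alone, 78 with the replicate block and 0 with only the groups compared. Leaving out a library gave 0 to 2 aquaporin calls and 0 to 205 over all genes. Aquaporin calls were 0 without any single sorted seedling, 500-nuclei or root library and 2 without either crude library. Over all genes, calls were 13 without root replicate 2 and 0 without the other root library or any single sorted seedling or 500-nuclei library.

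The counts of 0 over all genes became 13 for 500 nuclei with no filter. For crude nuclei they became 39 with the better-scoring 50% and 22 with no filter. For H2AX-GFP they became 29 with the better-scoring 50%, 2 with equal region numbers, 32 with no filter, and 4 and 1 with the lower- and higher-coordinate end alone. For H2AX-GFP, leaving out a library gave 0 to 184, the highest without H2AX-GFP replicate 1. Aquaporin calls stayed at 0 in all 24 alternatives of each of these comparisons. The cause of these shifts was not tested.

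Replicate numbers were not taken to pair the libraries, since the labels give no shared origin and not every correlation exceeded 0.1. Deviations of same-numbered libraries from their group means correlated between -0.22 and 0.51 over the pairs of groups, above 0.1 in 4 of 10, and the block ended the call of DELTA-TIP against the 4 groups and that of PIP3B against sorted seedlings (limma, adjusted p = 0.051). With 2 libraries per group and no read counts, small differences could not be resolved.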
